A study of Mus musculus with 4 samples.

Results

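The nuclear genes of oxidative phosphorylation were described in follicular B cells sorted from WT and Ets1-/- spleens. Members were taken by symbol, as every gene whose name starts with Nduf (complex I), Uqcr (complex III), Cox4 to Cox8 (complex IV) or Atp5 (ATP synthase) and the 4 Sdh genes (complex II). Of 23305 genes in the series 92 matched, and 89 of these were above 0 in at least 1 library, against 17315 of all genes. The other 3 (Cox7b2, Cox8b and Cox8c) were listed at 0 in all 4 libraries. Testing was limited to genes that averaged 1 FPKM or more in WT or in Ets1-/- cells, which left 86 members among 10949 genes. Cox4i2, Cox6a2 and Ndufa4l2 were above 0 but under that limit. Subunits encoded by mitochondrial DNA carry other symbols and are not part of the set.

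RNA-seq was done on 4 libraries, 2 biological replicates of each genotype, all from female mice. WT mice were C57BL/6. Ets1-/- mice carried their allele on a mixed C57BL/6 and 129Sv background, because the pure C57BL/6 knockout dies around birth, so strain and genotype cannot be told apart here. The sort kept B220+ CD23hi CD21low CD80neg cells without IgA, IgE or switched IgG on the surface, a gate for resting follicular B cells, and dead cells were gated out. The age of these mice and whether a library came from 1 animal or several were not given in the sources used here. Each value is an FPKM, that is, fragments per kilobase of transcript, scaled by the mapped reads, so levels of different genes are compared here per length.

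In oxidative phosphorylation, complexes I and II take electrons from NADH and succinate, complex III passes them to cytochrome c and complex IV hands them to oxygen, while protons are pumped out of the matrix by complexes I, III and IV. ATP synthase lets the protons back through a ring of c subunits in the inner membrane (Fo) and makes ATP in its F1 head. Many promoters of these genes are known to bind ETS family factors, above all the Gabpa and Gabpb1 heterodimer (nuclear respiratory factor 2), and the unrelated factor Nrf1, which makes the set of interest in cells that lack an ETS factor.

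To show what such promoters look like, short stretches of RefSeq promoter sequence (build GRCm38.p6, 5′ to 3′ on the strand of the gene) are printed for 4 members that hold the ETS core CCGGAAG and 3 that hold the Nrf1 core GCATGCGC. Capitals mark the core on either strand, and CTTCCGG is the ETS core read from the opposite strand. Where the Nrf1 core overlapped its own reverse complement, both are in capitals. The stretches lie at chr4:116075071-116075090 (minus strand) for Uqcrh, chr7:30626126-30626152 (minus) for Cox6b1, chr2:174464187-174464213 (minus) for Atp5e, chr2:119662836-119662862 (minus) for Ndufaf1, chr15:102671070-102671099 (minus) for Atp5g2, chr15:82354357-82354384 (minus) for Ndufa6 and chr4:140961207-140961234 (plus) for Sdhb.
Uqcrh: gtatgccgcaCTTCCGGcca
Cox6b1: cctctcgcagCTTCCGGccagtcggaa
Atp5e: acggccacagCTTCCGGtagccgctcg
Ndufaf1: gggaccacaaCCGGAAGcgtggcgaac
Atp5g2: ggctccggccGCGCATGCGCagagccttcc
Ndufa6: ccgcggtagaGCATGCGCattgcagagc
Sdhb: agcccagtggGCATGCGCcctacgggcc
The core began 10 bases upstream of the annotated start in Uqcrh, 28 in Cox6b1, 102 in Atp5e, 18 in Ndufaf1, 42 in Atp5g2, 83 in Ndufa6 and 54 in Sdhb.

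Respiratory chain and ATP synthase genes were highly expressed in these resting cells, and none was called changed between WT and Ets1-/- cells. The median member had 84.2 FPKM in WT replicate 1, 93.5 in WT replicate 2, 87.9 in Ets1-/- replicate 1 and 103 in Ets1-/- replicate 2, where the median of all genes tested lay between 13.4 and 13.9. Members together took 1.35% and 1.44% of the summed FPKM of the WT libraries and 1.26% and 1.40% of the Ets1-/- libraries, so the genotypes overlapped. In these bulk values fewer cells of a type and less RNA per cell cannot be told apart. Depth was not part of the files. Low values gave it only relative to WT replicate 1, with 1.71 times its depth in the other WT library and 1.65 and 0.85 times in Ets1-/- replicates 1 and 2. Ets1 itself was no check of the labels, with 231 and 275 FPKM in WT and 229 and 230 in Ets1-/- cells, since the targeted allele still gives RNA over most exons of the gene.

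**Figure D1:**
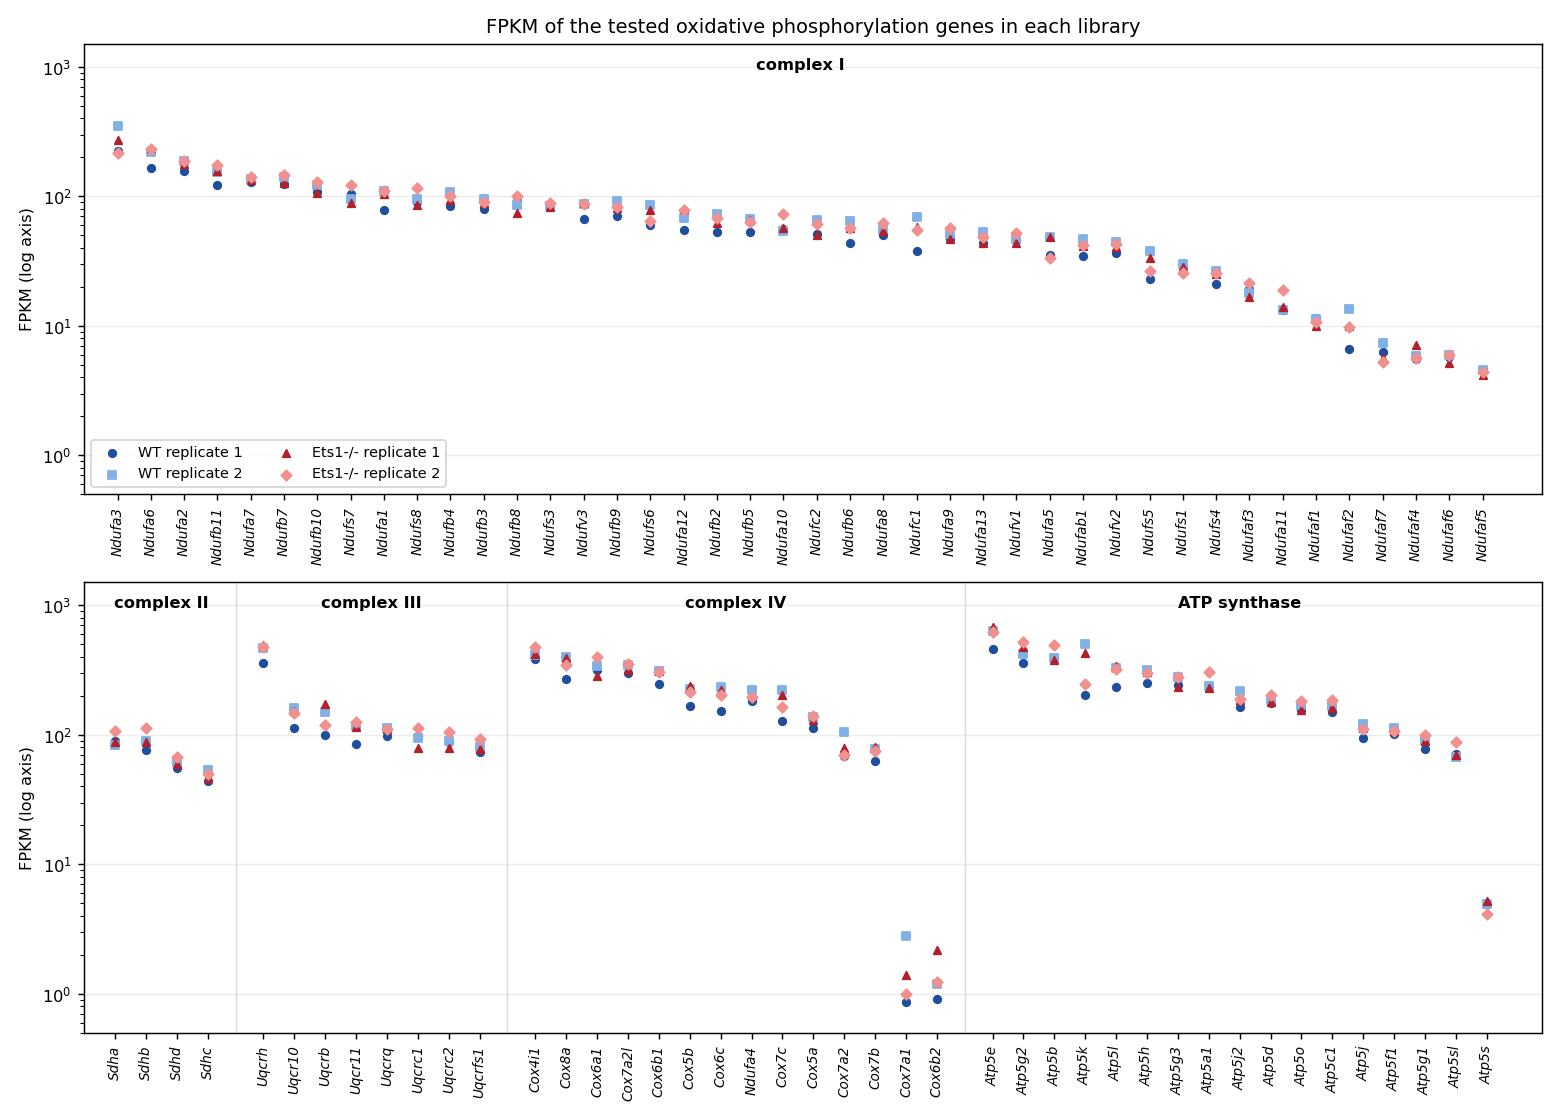
FPKM on a log axis for 85 of the 86 tested genes, ordered by mean level within each complex, with 1 point per library. The most abundant gene, Atp5e, reaches 674 FPKM, the assembly factors and Atp5s lie lower, Cox7a1 and Cox6b2 lie near 1, and WT replicate 1 (dark blue) is often the lowest point.

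The comparison of genotypes was made by limma over all tested genes. To be called, a gene had to differ 2-fold or more in FPKM + 1 (a log2 fold change of 1 in size). Its limma p, adjusted by Benjamini-Hochberg, also had to be no larger than 0.05. Of all genes tested 1.7% met both (186 of 10949), and of the members 0 of 86. Even at an unadjusted p under 0.05 in limma the members gave 0 of 86, where 13.3% of all genes passed. The 95% interval of the log2 fold change lay wholly between -1 and 1 for 84 of 86 members (97.7%), against 83.5% of all genes. On the log2(FPKM + 1) scale these limits are close to a 2-fold change in FPKM only for genes well above 1 FPKM. For nearly all members a 2-fold change in FPKM lay outside the interval. Exceptions to the limits were Cox7a1 and Atp5k, with intervals from -1.22 to 0.64 and from -1.28 to 1.30. Cox7a1 is a heart and muscle isoform of a complex IV subunit, at 0.868 and 2.80 FPKM in WT and 1.39 and 0.990 in Ets1-/- cells. Atp5k is the small e subunit of Fo. Cox6b2, also near 1 FPKM, kept within the limits at -0.20 to 0.96. A doubling of its FPKM is less than 1 on this scale and was not outside its interval.

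Small differences leaned upward in Ets1-/- cells. The mean log2 value was higher in Ets1-/- cells for 67 of 86 members (77.9%), against 46.9% of all genes tested, and the median log2 fold change was 0.08, against -0.01 over all genes, with single members between -0.29 (Cox7a1) and 0.38 (Cox6b2). Fewer members than genes at large had genotypes that did not overlap. Both Ets1-/- values were above both WT values for 10 of 86 (11.6%), against 19.4% of all genes, and below for 4 of 86 (4.65%), against 22.2%. The 10 were Ndufa6, Ndufa10, Ndufa11, Ndufa12, Ndufb11, Ndufv3, Uqcrh, Cox4i1, Cox6b2 and Atp5g2. The 4 were Ndufs1, Ndufaf1, Ndufaf5 and Ndufaf7. The upward lean depended on which libraries were used. Without WT replicate 1 the median of the members was -0.03, and without WT replicate 2 it was 0.20. Without Ets1-/- replicates 1 and 2 in turn it was 0.12 and 0.03. With quantile scaling of all libraries it was 0.03.

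**Figure D2:**
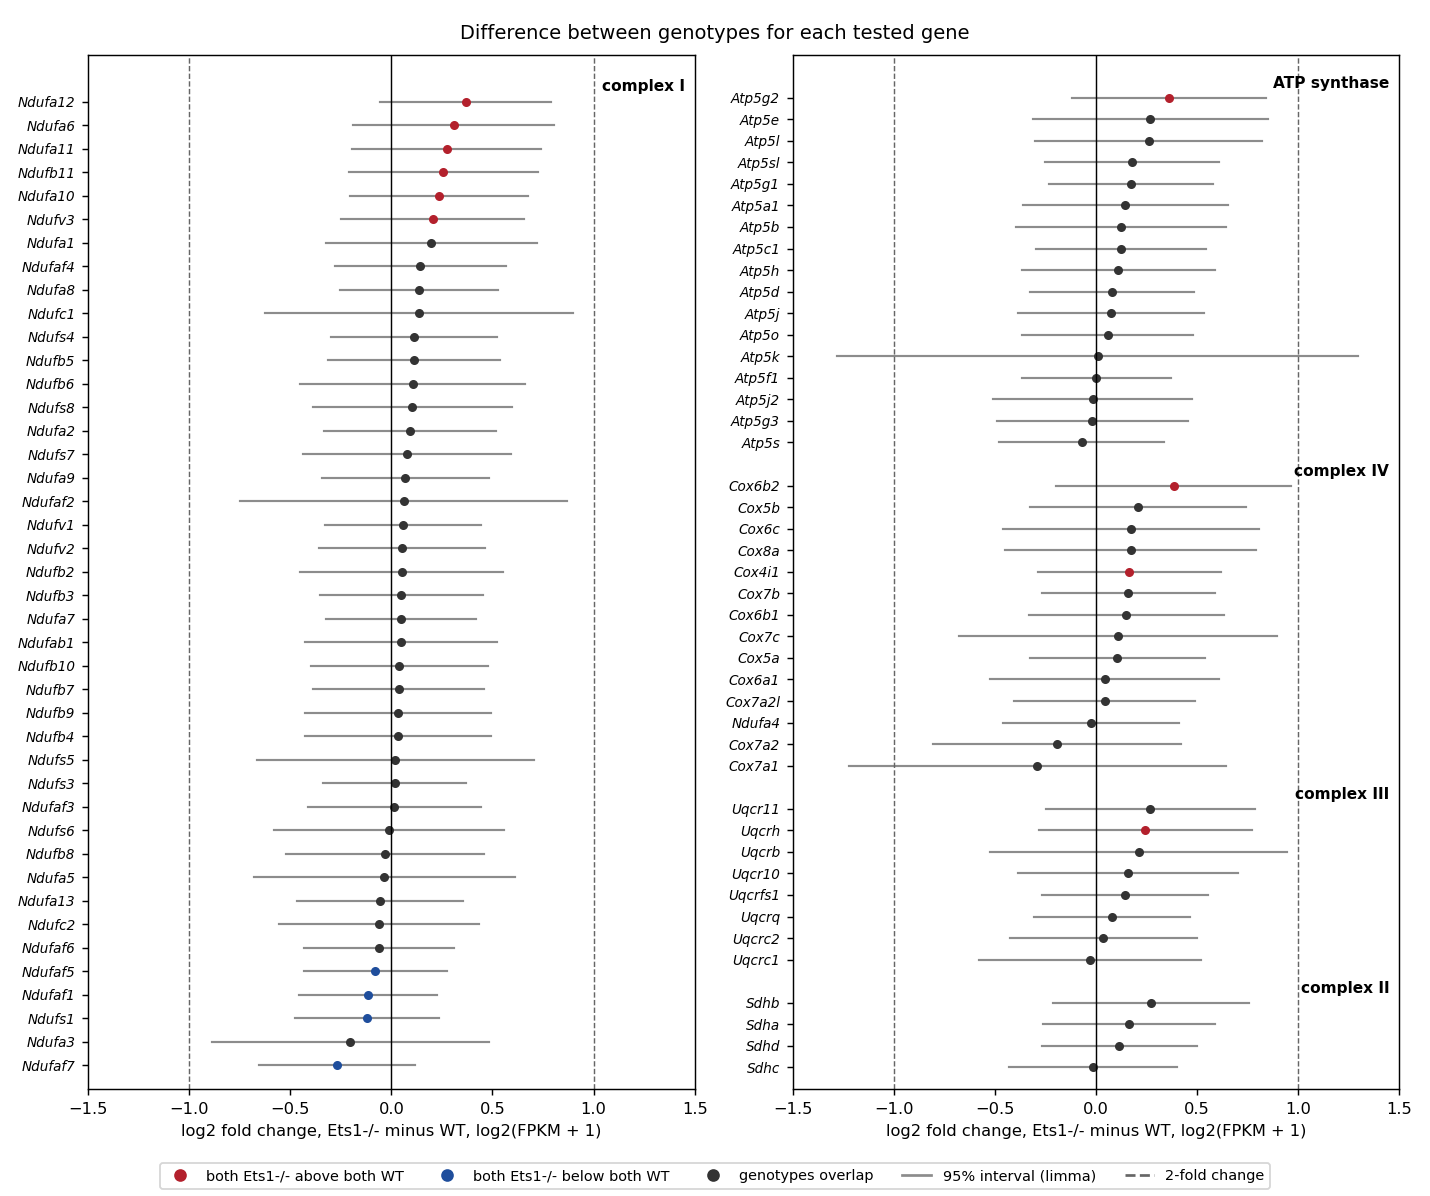
Log2 fold change (Ets1-/- minus WT, on the log2(FPKM + 1) scale) and its 95% interval from limma for 85 of the 86 tested genes, by complex. Dashed lines mark -1 and 1, a 2-fold change in FPKM + 1. Points are red where both Ets1-/- values exceeded both WT values (10 genes) and blue for the reverse (4 genes), every interval drawn spans 0, and only those of Cox7a1 and Atp5k cross a dashed line.

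Complex I gave 43 tested members with a median log2 fold change of 0.05. Its 7 nuclear core subunits, the conserved catalytic part of the enzyme, had a median of 0.06, and 6 of the 7 had a higher mean in Ets1-/- cells. The exception was Ndufs1, the largest iron-sulfur subunit of the NADH-oxidizing arm. It stood at 28.6 and 30.2 FPKM in WT and 28.6 and 25.5 in Ets1-/- cells, with a log2 fold change of -0.12 ± 0.14 (SE). The lower of the WT values and the higher of the Ets1-/- values nearly met, at 28.59 and 28.58 FPKM.

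Among the 29 accessory subunits of complex I, which surround the core and stabilize it, the median log2 fold change was 0.05, with both Ets1-/- values above both WT values for 6 of 29 and below for 0, where 19.4% and 22.2% of all genes tested were. Ndufa12, needed late in assembly of the peripheral arm, had 54.9 and 68.3 FPKM in WT and 80.1 and 78.4 in Ets1-/- cells. Its log2 fold change of 0.37 ± 0.17 (SE) was the largest of complex I and did not pass (limma, unadjusted p = 0.0759, Benjamini-Hochberg adjusted p = 0.450). Ndufa6 followed with 166 and 219 FPKM in WT and 238 and 234 in Ets1-/- cells (log2 fold change 0.31). In both genes the WT replicates differed from each other by about as much as the genotypes did, with WT replicate 1 the lower. Ndufa3, the most highly expressed member of complex I, ran the other way in the mean at 225 and 347 FPKM in WT and 272 and 217 in Ets1-/- cells. Its genotypes overlapped in part, and the log2 fold change was -0.20 ± 0.27 (SE).

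The 7 complex I assembly factors, Ndufaf1 to Ndufaf7, act while the complex is built and are not found in the finished enzyme. They were the lowest group in level, with a median member between 5.93 and 7.32 FPKM over the 4 libraries, and had a median log2 fold change of -0.06. Ndufaf7, a mitochondrial methyltransferase, had 6.24 and 7.32 FPKM in WT and 5.63 and 5.26 in Ets1-/- cells (log2 fold change -0.27 ± 0.15 SE, limma with Benjamini-Hochberg adjusted p = 0.582). Ndufaf1, a subunit of the assembly complex for the membrane arm, had 11.4 and 11.3 FPKM in WT and 9.997 and 10.7 in Ets1-/- cells. Ndufaf5, which hydroxylates Ndufs7, had 4.57 and 4.60 in WT and 4.16 and 4.41 in Ets1-/- cells. These 3 were lower in both Ets1-/- libraries by margins that did not pass the test, and 0 of the 7 were higher in both, where 22.2% of all genes tested were lower in both and 19.4% higher. The remaining 4 overlapped between the genotypes, with log2 fold changes of 0.06 for Ndufaf2, 0.01 for Ndufaf3, 0.14 for Ndufaf4 and -0.06 for Ndufaf6. Ndufaf2 also varied widely within WT, at 6.61 and 13.4 FPKM.

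Complex II, which is also succinate dehydrogenase of the citric acid cycle, is encoded by 4 nuclear genes and had a median log2 fold change of 0.14. Sdha, the flavoprotein, stood at 90.2 and 83.7 FPKM in WT and 88.1 and 108 in Ets1-/- cells. Sdhb, the iron-sulfur subunit, stood at 76.8 and 88.8 in WT and 87.7 and 114 in Ets1-/- cells. In both genes Ets1-/- replicate 2 was the highest library and Ets1-/- replicate 1 lay within the WT range. Sdhc (44.0, 53.9, 46.1 and 50.2 FPKM in WT replicates 1 and 2 and Ets1-/- replicates 1 and 2) and Sdhd (55.9, 61.9, 59.9 and 67.9 FPKM), which anchor the enzyme in the membrane, also overlapped between the genotypes. The log2 fold changes were 0.16 for Sdha, 0.27 for Sdhb, -0.02 for Sdhc and 0.12 for Sdhd, with standard errors between 0.15 and 0.19.

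Complex III gave 8 tested members and a median log2 fold change of 0.15. Uqcrh, the acidic hinge protein at the cytochrome c docking site, was its most abundant transcript, with 355 and 468 FPKM in WT and 490 and 476 in Ets1-/- cells. It was the 1 member of complex III with both Ets1-/- values above both WT values (log2 fold change 0.24 ± 0.21 SE). Uqcr11, the smallest subunit, had 85.2 and 118 FPKM in WT and 116 and 126 in Ets1-/- cells, and its log2 fold change of 0.27 ± 0.20 (SE) was the largest of the complex. For Uqcrh and Uqcr11 alike, 3 libraries lay close together and WT replicate 1 was lowest. Uqcrfs1, the Rieske iron-sulfur protein, was the lowest in level, at 74.0 and 80.7 FPKM in WT and 78.2 and 93.4 in Ets1-/- cells.

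In complex IV, 14 tested members had a median log2 fold change of 0.13. Its muscle, testis and hypoxia isoforms lay at or near 0. Cox4i1, the ubiquitous form of subunit 4, led the complex with 387 and 413 FPKM in WT and 420 and 479 in Ets1-/- cells, while Cox4i2, the lung and hypoxia form, was listed at 0 in both WT libraries and had 0.161 and 0.102 FPKM in Ets1-/- cells. Cox6a1 exceeded its heart and muscle counterpart Cox6a2 by 614 and 1940 times in WT and by 464 and 310 times in Ets1-/- cells. These large ratios varied between replicates because Cox6a2 stayed between 0.177 and 1.30 FPKM. Cox6b1 exceeded the testis form Cox6b2 by 269 and 263 times in WT and by 142 and 247 times in Ets1-/- cells, and Cox7a2 exceeded Cox7a1 by 79.3 and 37.6 times and by 57.0 and 70.5 times. Ndufa4, once counted with complex I and now placed in complex IV, had 182 and 220 FPKM in WT and 198 and 195 in Ets1-/- cells, while the hypoxia-responsive Ndufa4l2 reached at most 0.0707 FPKM. For subunits 7b and 8 all signal came from Cox7b (62.7 and 78.0 FPKM in WT, 80.9 and 75.6 in Ets1-/-) and Cox8a (270 and 396 in WT, 394 and 345 in Ets1-/-), with Cox7b2, Cox8b and Cox8c listed at 0.

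The complex IV member with the largest log2 fold change, Cox6b2, had only 0.912 and 1.19 FPKM in WT and 2.18 and 1.24 in Ets1-/- cells. Its value of 0.38 ± 0.23 (SE) rested mainly on Ets1-/- replicate 1 and did not pass (limma, Benjamini-Hochberg adjusted p = 0.618). The more abundant Cox6b1 differed by 0.15 and Cox7a2 by -0.19, each with overlapping genotypes. Cox7a2l had 302 and 346 FPKM in WT and 318 and 349 in Ets1-/- cells. Its ratio to Cox7a2 was 4.39 and 3.28 in WT and 4.02 and 5.0 in Ets1-/- cells, so the replicates of each genotype again overlapped with those of the other.

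ATP synthase gave 17 tested members with a median log2 fold change of 0.11. Atp5e, the epsilon subunit of the F1 stalk, was the most abundant transcript of the whole set, with 459 and 629 FPKM in WT and 674 and 623 in Ets1-/- cells. Atp5b and Atp5a1, which form the catalytic head, kept nearly the same ratio in every library. Atp5b exceeded Atp5a1 by 1.65 and 1.64 times in WT and by 1.64 and 1.61 times in Ets1-/- cells. Atp5s, a coupling factor outside the core enzyme, was the lowest, at 4.95 and 4.91 FPKM in WT and 5.19 and 4.14 in Ets1-/- cells. Atp5sl, which shares its name but is known for a part in complex I assembly, had 71.0 and 67.6 FPKM in WT and 70.0 and 87.8 in Ets1-/- cells.

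The proportions differed among the 3 genes of the c subunit. Atp5g1, Atp5g2 and Atp5g3 lie on different chromosomes and encode the same mature protein behind different import sequences. Atp5g2 had 356 and 422 FPKM in WT and 474 and 525 in Ets1-/- cells, higher in both Ets1-/- libraries (log2 fold change 0.36 ± 0.19 SE, limma with Benjamini-Hochberg adjusted p = 0.541). Atp5g3 had 240 and 281 FPKM in WT and 235 and 279 in Ets1-/- cells, with the genotypes overlapping (-0.02 ± 0.18 SE). Atp5g1 had 77.4 and 89.95 FPKM in WT and 89.4 and 99.4 in Ets1-/- cells (0.17 ± 0.16 SE). As a share of the summed FPKM of the 3 genes, Atp5g2 gave 52.9% and 53.3% in WT and 59.4% and 58.1% in Ets1-/- cells, that is 53.1% ± 0.282 against 58.7% ± 0.900 (SD, n = 2 each). The share of Atp5g3 was 35.6% and 35.4% in WT and 29.5% and 30.9% in Ets1-/- cells, and that of Atp5g1 stayed between 11% and 11.5%. Equivalently, Atp5g2 exceeded Atp5g3 by 1.48 and 1.51 times in WT and by 2.01 and 1.88 times in Ets1-/- cells. The difference in the Atp5g2 share, 5.64 percentage points, was larger than the spread between replicates of either genotype, but 2 libraries against 2 cannot give a p below 0.333 in a two-sided exact permutation test, and that was its p. In the mm9 build the genes lie at chr15:102493299-102501478 (Atp5g2, minus strand), chr2:73746504-73749383 (Atp5g3, minus) and chr11:95930166-95936984 (Atp5g1, minus). Their exon lengths were 647, 718.5 and 691 bases (medians over transcripts). Whether the difference in share came with the genotype or with the 129Sv part of the Ets1-/- background cannot be told apart.

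**Figure D3:**
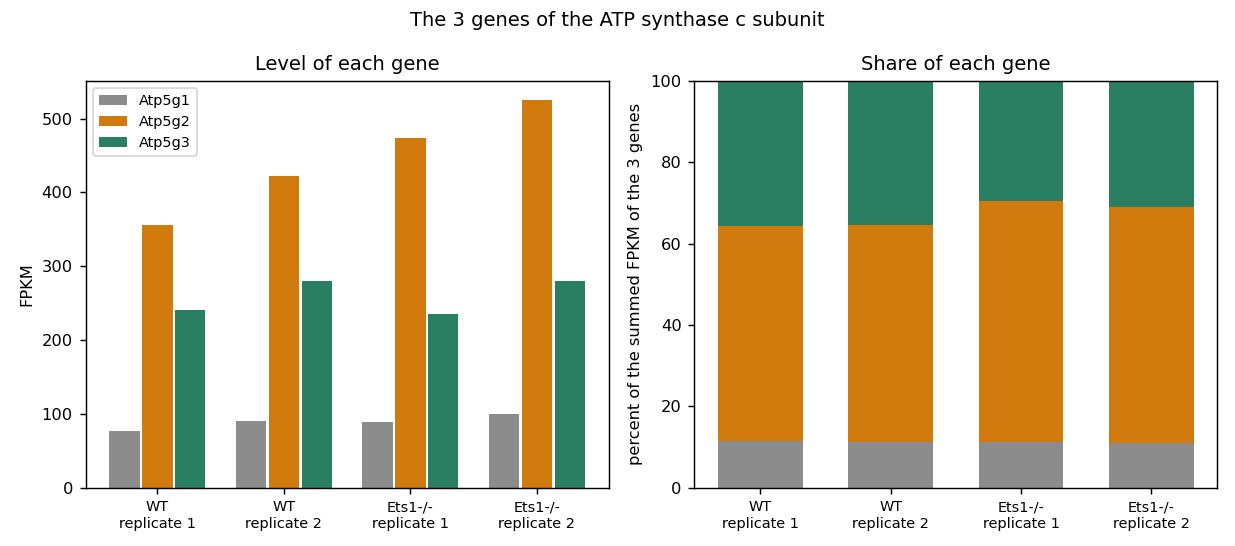
FPKM of Atp5g1, Atp5g2 and Atp5g3 in each library (left, linear axis from 0) and the share of each in the sum of the 3 (right, in percent). The Atp5g2 band takes 52.9% and 53.3% in the WT libraries and 59.4% and 58.1% in the Ets1-/- libraries, and the Atp5g3 band takes 35.6% and 35.4% against 29.5% and 30.9%.

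Over the members, the 2 WT libraries differed from each other by more than the means of the genotypes did. WT replicate 1 was the lowest of the 4 libraries for 57 of 86 members (66.3%), against 21.3% of all genes tested, and the highest for 1. Ets1-/- replicate 2 was the highest for 37 members (43.0%, against 33.8% of all genes) and WT replicate 2 for 35 (40.7%, against 19.0%). On the log2(FPKM + 1) scale WT replicate 2 exceeded WT replicate 1 by a median of 0.26 over the members and 0.00 over all genes. Ets1-/- replicate 1 minus replicate 2 gave a median of -0.08 over the members. The genotypes differed by 0.08. That value is between means of 2 libraries, which vary less than single libraries. Cytosolic ribosomal protein genes, also short and highly expressed, were low in WT replicate 1 as well, by a median of 0.36 below the mean of the 4 libraries (a deviation of -0.36), against -0.16 for the oxidative phosphorylation genes and -0.06 for the 76 mitochondrial ribosomal protein genes. Unlike the oxidative phosphorylation genes, most ribosomal protein genes kept the genotypes apart, with both Ets1-/- values above both WT values for 57 of 81 (19.4% of all genes tested) and a median log2 fold change of 0.35, although 0 of them were called. The mitochondrial ribosomal protein genes had a median of 0.03, with 8 of 76 above and 11 below (19.4% and 22.2% of all genes tested).

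**Figure D4:**
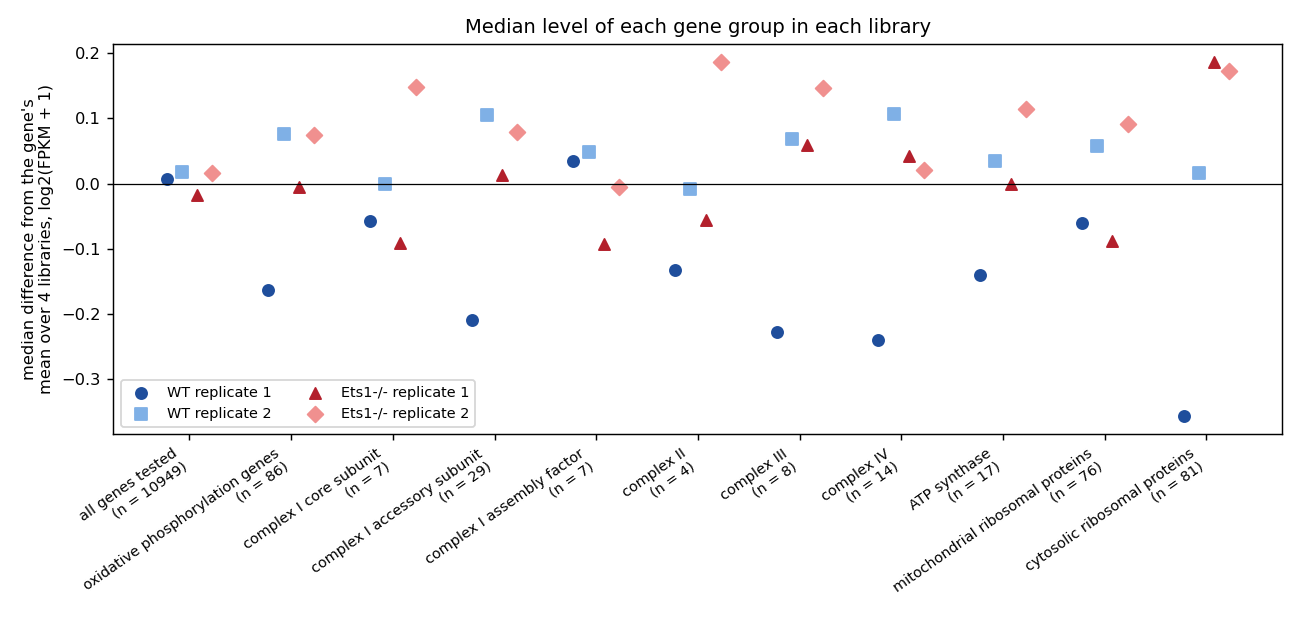
Median difference of each gene group from the mean of the gene over the 4 libraries, on the log2(FPKM + 1) scale, with 1 point per library and the number of tested genes in brackets. WT replicate 1 (dark blue circles) is the lowest library for the oxidative phosphorylation genes as a whole, the accessory subunits of complex I, complexes II, III and IV, ATP synthase and the cytosolic ribosomal proteins. For the oxidative phosphorylation genes as a whole it stands at -0.16, against 0.08 in the other WT library and -0.01 and 0.08 in the Ets1-/- libraries 1 and 2.

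Transcript length went along with these replicate differences. Members are short, with a median exon length of 701 bases where all tested genes have 2182. Among the 82 members with a length, the difference between the WT replicates was larger the shorter the transcript, with a Spearman rho across genes of -0.65, against -0.15 over 10183 genes. The median excess of WT replicate 2 was 0.46 for 26 members under 600 bases, 0.27 for 28 between 600 and 1000 bases and 0.09 for 28 over 1000 bases. In all genes tested the same classes gave 0.19, 0.07 and -0.01. Between the Ets1-/- replicates (1 minus 2) the members gave 0.06, -0.13 and -0.21 in the 3 classes, with a rho of -0.56, where all genes gave 0.13. The difference between genotypes had a rho of -0.09 with length over the members and -0.15 over all genes. Its medians in the 3 classes were 0.13, 0.08 and 0.08 over the members and 0.11, 0.04 and -0.03 over all genes. Genes are not independent replicates and share their library, so these values describe the 4 libraries and no p is given.

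**Figure D5:**
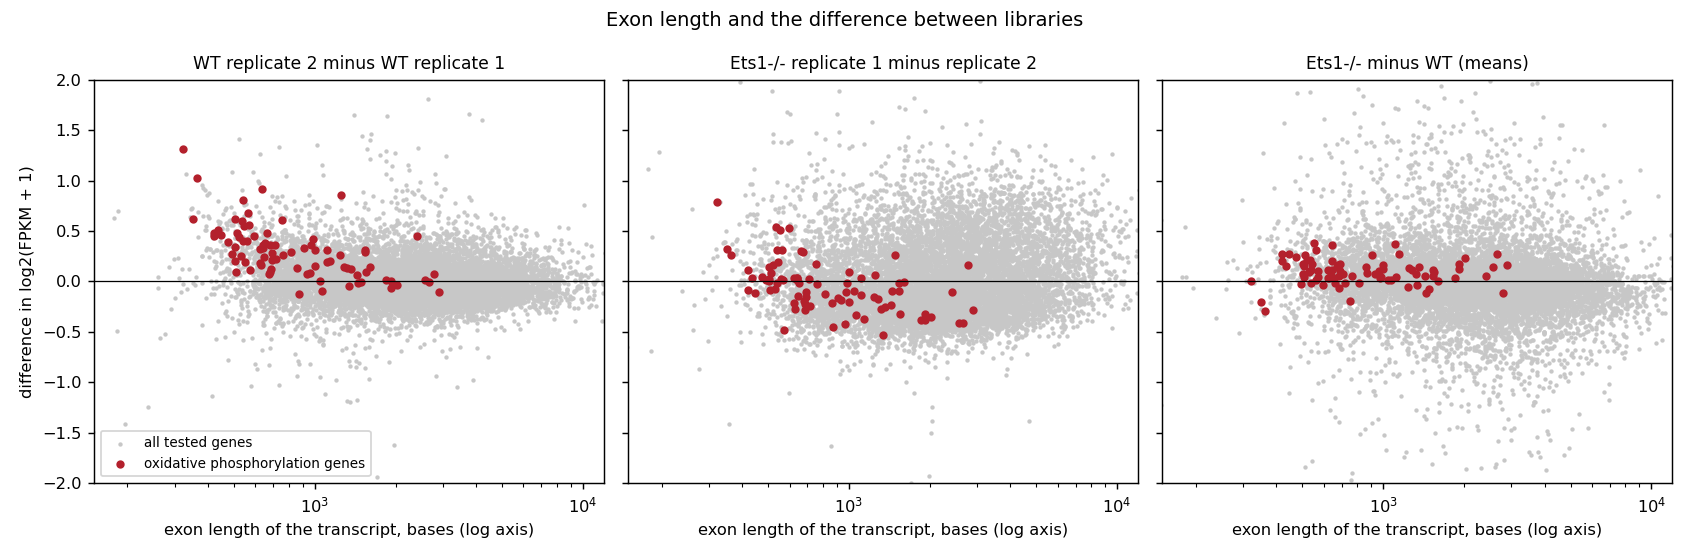
Difference in log2(FPKM + 1) against exon length in bases (log axis) for the 10183 tested genes with a length (grey) and the 82 oxidative phosphorylation genes among them (red), between the WT replicates, between the Ets1-/- replicates and between the genotypes. Red points rise to the left in the first 2 panels, with rho of -0.65 and -0.56, and are close to level in the third at -0.09. Between 56 and 137 genes per panel, none of them red, lie above or below the vertical axis. Genes outside the range of the length axis were not counted.

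Atp5k was the extreme case. It had the shortest transcripts and 4 named pseudogenes in RefSeq, and its FPKM were 204 and 506 in WT and 425 and 245 in Ets1-/- cells. WT replicate 1 and Ets1-/- replicate 2, the 2 shallower libraries, gave the low values, and the log2 fold change between genotypes was 0.01. Ndufc1 (38.01 and 69.5 FPKM in WT, 57.9 and 55.4 in Ets1-/-) and Cox7c (127 and 223 in WT, 203 and 163 in Ets1-/-) showed the same low WT replicate 1. RefSeq names pseudogenes for 10 members in all, among them Ndufa12 (1) and Uqcrh (2), whose reads could have been shared with the copies.

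Promoters were then read for the ETS and Nrf1 cores, in 250 bases before and 50 after the annotated start of the 74 tested members with a RefSeq promoter. The ETS core CCGGAAG was present on either strand in 17 of 74 (23.0%), close to the share among all 8609 tested genes with a promoter (22.4%), where all 27025 genes with a promoter gave 9.93%. The Nrf1 core GCATGCGC was present in 12 of 74 (16.2%), against 6.44% of tested genes and 3.05% of all genes. Atp5k, Atp5l, Cox6a1, Sdhb and Uqcr11 held both, 6.76% of members against 1.60% of tested genes. Members with the ETS core had a median log2 fold change of 0.11 and those without it 0.06, and members with and without the Nrf1 core had 0.20 and 0.07. None of them reached an unadjusted p under 0.05 in limma, with or without either core. Among all tested genes 6.42% of those with the ETS core and 15.1% of those without it did. A match is a description of the letters in this window and not of binding.

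The lists of other mitochondrial genes gave no calls either. Of 14 regulators of mitochondrial biogenesis 0 were called. Gabpa, the ETS subunit of nuclear respiratory factor 2, had 13.8 and 15.5 FPKM in WT and 17.6 and 11.9 in Ets1-/- cells (log2 fold change -0.01 ± 0.21 SE). Myc, a transcription factor that drives growth and mitochondrial genes, had the largest difference of the list, with 72.5 and 121 FPKM in WT and 197 and 130 in Ets1-/- cells (0.77 ± 0.33 SE, limma with Benjamini-Hochberg adjusted p = 0.416). Ppargc1b, a coactivator of respiratory genes, had 2.91 and 3.17 FPKM in WT and 2.05 and 1.72 in Ets1-/- cells (-0.49 ± 0.16 SE, limma with Benjamini-Hochberg adjusted p = 0.258). Its paralog Ppargc1a had 0.584 and 0.610 FPKM in WT and 1.25 and 0.950 in Ets1-/- cells (0.39, limma with Benjamini-Hochberg adjusted p = 0.426). The genotypes did not overlap in either gene, in opposite directions, and neither passed the adjusted threshold. Ppargc1a entered the test only through its Ets1-/- mean (1.10 FPKM, against 0.597 in WT), so its lack of overlap is no support for a difference. Of the 14 regulators, both Ets1-/- values were above both WT values for 2 and below for 4, where 19.4% and 22.2% of all genes tested were. Of 29 further assembly factors and electron carriers, complex I factors named otherwise than Ndufaf included, 0 were called, with a median of 0.01. Cox18, which inserts a complex IV core subunit into the membrane, had 11.8 and 12.7 FPKM in WT and 16.6 and 17.9 in Ets1-/- cells (0.46 ± 0.14 SE, limma with Benjamini-Hochberg adjusted p = 0.221), and Atpif1, the inhibitor of ATP synthase, had 60.1 and 77.2 in WT and 89.7 and 92.2 in Ets1-/- cells (0.41 ± 0.17 SE).

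Of 23 tested genes of the citric acid cycle and of pyruvate entry into mitochondria 0 were called and the median was 0.03, but single genes stood further apart than any member of the respiratory chain. Pdk1, the kinase that switches off pyruvate dehydrogenase, had 11.4 and 11.1 FPKM in WT and 6.19 and 7.17 in Ets1-/- cells (-0.68 ± 0.14 SE, limma with Benjamini-Hochberg adjusted p = 0.114). Mpc1, a subunit of the mitochondrial pyruvate carrier, had 54.3 and 67.1 FPKM in WT and 39.4 and 36.2 in Ets1-/- cells (-0.66 ± 0.16 SE, limma with Benjamini-Hochberg adjusted p = 0.158). Fh1, the fumarase of the cycle, lay on the other side, with 68.4 and 62.8 FPKM in WT and 88.7 and 108 in Ets1-/- cells (0.57 ± 0.16 SE, limma with Benjamini-Hochberg adjusted p = 0.209). In all 3 the genotypes did not overlap, and none passed the adjusted threshold. These 3 were named as the largest differences of the list. Over the 23 tested genes, both Ets1-/- values were above both WT values for 4 and below for 6, where 19.4% and 22.2% of all genes tested were.

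Markers of other cell types differed between the libraries. The 9 genes of a neutrophil granule list summed to 112 and 92.9 FPKM in WT and 2559 and 701 in Ets1-/- cells. Of the 9, 3 were called higher, where 1.7% of all genes tested were called in either direction. Both Ets1-/- values were above both WT values for all 9 (19.4% of all genes tested). Elane, Mpo and Mmp9 entered the test only through their Ets1-/- means. The 6 genes of an erythroid list summed to between 4.8 and 6.2 FPKM in WT and between 27.6 and 87.9 in Ets1-/- cells, and 1 of 7 macrophage and dendritic cell genes was called higher. None of 6 T cell and 6 plasma cell genes was called. Of the plasma cell genes 3 (Prdm1, Sdc1 and Mzb1) were higher at an unadjusted p under 0.05 in limma, and of the T cell genes 0, where 13.3% of all genes passed either way. Both Ets1-/- values were above both WT values for 3 of the 6 plasma cell genes and below for 2 (19.4% and 22.2% of all genes). Prdm1 entered the test only through its Ets1-/- mean (1.58 FPKM, against 0.626 in WT). The 8 B cell genes summed to 6625 and 6415 FPKM in WT and 5298 and 6278 in Ets1-/- cells, none at 0 and none called. Among them Cr2, which encodes the CD21 of the sort gate, had 102 and 116 FPKM in WT and 65.1 and 29.95 in Ets1-/- cells (log2 fold change -1.28, limma with Benjamini-Hochberg adjusted p = 0.216). Ets1-/- replicate 1 had most neutrophil transcript and Ets1-/- replicate 2 was the highest library for 37 members, more than any other, and the part of these cells in the values of the members was not tested. The 13 proliferation genes gave 0 at an unadjusted p under 0.05 in limma and summed to 234 and 311 FPKM in WT and 308 and 306 in Ets1-/- cells, with WT replicate 1 again the lowest.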

How the data were processed

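Reads from 4 TruSeq libraries were sequenced on a HiSeq2500. Per the labels and methods, the authors aligned them to mm9 with TopHat2 (version 2.0.13 in the submitters' processing notes), estimated expression with Cuffdiff and deposited 1 FPKM value per gene and library. The Cuffdiff version and the gene annotation were not given in the sources used here. FPKM is not a count, so no count model was run. Of 23309 entries per file, 4 with repeated symbols were left out. A symbol listed at 0 may be a failed estimate.

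Linear models were fitted to log2(FPKM + 1) with limma 3.58.1 in R 4.3.3 (variance trend on mean level, 2 residual and 3.095 prior degrees of freedom), using every library and the 10949 genes averaging 1 FPKM or more in WT or in Ets1-/- cells, with Benjamini-Hochberg adjustment over all of them. The pseudocount of 1 understates changes of low genes. Simulated data with known changes were used to check the fit. They had independent normal errors with the same SD for every gene. In the real data the median absolute log2 difference between replicates was 0.126 in WT and 0.259 in Ets1-/- cells. The simulation therefore cannot vouch for the intervals and p-values given here. Other values were computed in Python 3.11.15 (numpy 2.4.6, pandas 2.3.3, scipy 1.17.1, matplotlib 3.10.9). Exon lengths and mm9 positions came from GENCODE M1, which matched 21016 genes (90.2%) and 82 of 86 tested members (not Ndufaf5, Ndufaf6, Ndufaf7 and Ndufb8). Promoters came from RefSeq (GRCm38.p6) and matched 74 tested members. With 2 libraries per genotype, errors are SDs over 2 values or standard errors of the fit. Counting error was not estimated, since the paper gives only a range of reads over the samples and not the depth of each library.

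Of the tested members 1 is counted in the summaries but not reported here by itself. The members and lists were chosen with earlier results of these data known. Named members are the highest, the lowest and the most different of each complex, all Sdh genes, the isoform groups and the members that are not subunits. Ndufa6, Ndufs1, Atp5k, Atp5b, Atp5a1, Ndufc1 and Cox7c, Gabpa, Ppargc1a, Fh1, Cr2 and the members listed as not overlapping were named outside this rule, after their values were seen. Alternatives covered the pseudocount, the filter, the threshold, the scaling, the replicate number as a block, each library left out, robust variances and removal of the length trend.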

Additional observations from a re-analysis of the deposited data

How the results depend on the processing

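No member was called changed under any alternative run: pseudocounts of 0.1 and 5, no filter, a mean FPKM of at least 5, quantile and upper quartile scaling, robust variances, the length trend removed, no 2-fold minimum, an adjusted p of 0.10, the replicate block and each library left out, while all genes tested gave between 75 and 312 calls with limma. At an unadjusted p under 0.05 in limma, 2 members passed without the filter, Cox4i2 and Ndufa4l2, both listed at 0 in WT, and leaving out 1 library gave 0 to 3 members, namely Cox7a1 without WT replicate 1, Atp5sl, Ndufa10 and Ndufa11 without Ets1-/- replicate 1 and Cox6b2 without Ets1-/- replicate 2. The same fits passed 2219 of all genes without the filter and 793, 883, 2675 and 1996 without WT replicates 1 and 2 and Ets1-/- replicates 1 and 2, against 1461 with all libraries. Without the filter 89 members were tested, among the 17315 genes above 0 in at least 1 library. With it 86 members were tested among 10949 genes, of which 13.3% passed. The counts 2219 and 1461 thus have different bases, and the larger count is no sign of a larger share. The fits with 1 library left out tested 86 members, and 1 genotype then had no replicate, so no conclusion is drawn from their counts. Why the counts differed between the fits was not tested.

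The median log2 fold change of the members, 0.08, moved to 0.03 with quantile scaling and 0.05 with the length trend removed. That trend was fitted over all genes and its removal was partial for the members. Their difference between the WT replicates still had a Spearman rho of -0.37 with length, against -0.65 before. It was -0.03 without WT replicate 1, 0.20 without WT replicate 2, 0.12 without Ets1-/- replicate 1 and 0.03 without Ets1-/- replicate 2. Its sign thus turned without WT replicate 1. The SD between replicates (0.13) is no yardstick for these moves, since it is built from the same differences between libraries. The replicate block left the median at 0.08 and called 0 members and 266 of all genes, against 186. The numbers are shared by the labels only, and same-numbered libraries deviated with a correlation of -0.21 across genes. A crossed pairing, chosen after seeing the data, gave 0 members and 409 of all genes.

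Of 441 values of 32 named members under the alternatives, 25 changed sign and 0 passed the threshold (smallest Benjamini-Hochberg adjusted p in limma 0.201). Quantile scaling turned Cox4i1 to -0.03, Cox6a1 to -0.10 and Cox7a2l to -0.06, and removing the length trend turned Cox6a1 to -0.021 and Ndufaf3 to -0.016. With 1 library left out, the log2 fold change ranged from -0.20 to 0.29 for Cox6a1, -0.021 to 0.32 for Cox6b1, -0.056 to 0.14 for Cox7a2l, -0.10 to 0.45 for Cox8a, -0.40 to 0.52 for Ndufaf2, -0.14 to 0.10 for Atp5g3, -0.80 to 0.22 for Cox7a1, -0.50 to 0.11 for Cox7a2, -0.51 to 0.11 for Ndufa3, -0.16 to 0.11 for Ndufa4, -0.15 to 0.18 for Ndufaf3, -0.16 to 0.13 for Sdhc, -0.005 to 0.29 for Ndufaf4, -0.15 to 0.022 for Ndufaf6 and -0.21 to 0.061 for Atp5s. A lone library was then assumed to vary like the other genotype.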
